A study of Xenopus tropicalis with 36 samples.

Results

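The genes described here are shh, ptch1, gli1, chrd, nog, foxa4, foxa2 and col2a1, 8 genes of hedgehog signalling, the floor plate and the notochord. They were chosen by symbol from a count table of 25774 genes, and 7 of the 8 symbols matched 1 row each. No row bears the plain symbol gli1. The table holds gene models gli1.1 and gli1.2 instead, which are described beside the 7 members and are not counted among them. All 9 exceeded the count filter, a mean normalized count above 7 in the control embryos, as did 17987 genes in all.

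The notochord is the axial rod of the vertebrate embryo, and the floor plate is the ventral midline of the neural tube above it. Both secrete Sonic hedgehog, whose receptor Patched holds the pathway off until the ligand binds, after which Gli factors switch on targets that include the genes of Patched and Gli1 themselves. The early notochord also secretes the BMP antagonists Chordin and Noggin, and the mature one lays down a sheath rich in type II collagen. Brachyury is a T-box factor required to form the notochord, and X. tropicalis has 2 paralogs of it, t and t2.

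To compare Brachyury morphants with null mutants, poly(A) RNA of whole X. tropicalis embryos was sequenced after knockdown (the KD experiment) and after gene knockout (the KO experiment). In the KD experiment, embryos of the out-bred Nigerian strain from frogs D, E and F received 18 ng of t/t2 MO (morpholinos that block splicing and translation of both paralogs), 18 ng of a standard control MO (cMO), or no injection. In the KO experiment, crosses 1, 2 and 9 between double heterozygous frogs gave t/t2 KO embryos (homozygous for alleles e1.2D of t and e3.7D of t2), t/t2 het embryos (1 copy of each allele) and wild-type siblings, all without injection. For each of 6 conditions there were 3 libraries at stage 26 and 3 at stage 34, 1 per clutch, and a library combined RNA of 5 to 10 siblings. Each paralog is represented by a single mutant allele. Whole embryos hold all tissues, so fewer notochord or floor plate cells and less RNA per cell cannot be told apart.

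The 36 libraries held 30225504 to 52401214 gene fragments (median 37215941). Levels are given as CPM, that is counts scaled to a library of 1e+06 gene fragments with edgeR's TMM factors. The targeted transcript t2 was at 0.467 to 1.59 CPM in t/t2 MO against 34.5 to 39.5 CPM in uninjected embryos at stage 26, and at 0.0284 to 0.108 CPM in t/t2 KO against 21.7 to 26.3 CPM in wild-type embryos. The t transcript was at 13.6 to 18.4 CPM in t/t2 MO against 23.6 to 27.5 CPM in uninjected, and at 2.16 to 3.88 CPM in t/t2 KO against 17.2 to 23.4 CPM in wild-type embryos at stage 26. The t/t2 MO and the t/t2 KO libraries thus went with their labels. In t/t2 het embryos t was at 30.3 to 32.5 CPM, above the wild-type range, with a log2 change of 0.65 ± 0.14 (SE) and an adjusted p of 0.24 over both stages by edgeR's quasi-likelihood test.

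Changes were tested by edgeR's quasi-likelihood F-test, with stage and condition as terms. To be called, a gene needed a false discovery rate (FDR, the adjusted p) of 0.1 or less together with a change of 1.5-fold or more. Of the 7 members, 1 was called between t/t2 MO and uninjected embryos (foxa4, lower), where 15.2% of all genes past the filter were called, 6.64% higher and 8.58% lower. Between t/t2 KO and wild-type embryos 1 member was called (chrd, lower), with 3.44% of all genes called, 0.467% higher and 2.97% lower. The members' median log2 change was -0.22 in t/t2 MO embryos, against -0.03 over all genes, and -0.22 in t/t2 KO embryos, against 0.00 over all genes. With stages tested apart, 2 members were called in t/t2 MO embryos at stage 26 (chrd and col2a1, both lower, 11.2% of all genes called) and 2 at stage 34 (foxa4 lower and chrd higher, 19.7% of all genes called). In t/t2 KO embryos chrd alone was called at stage 26 (2.51% of all genes called) and at stage 34 (2.98%).

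**Figure D1:**
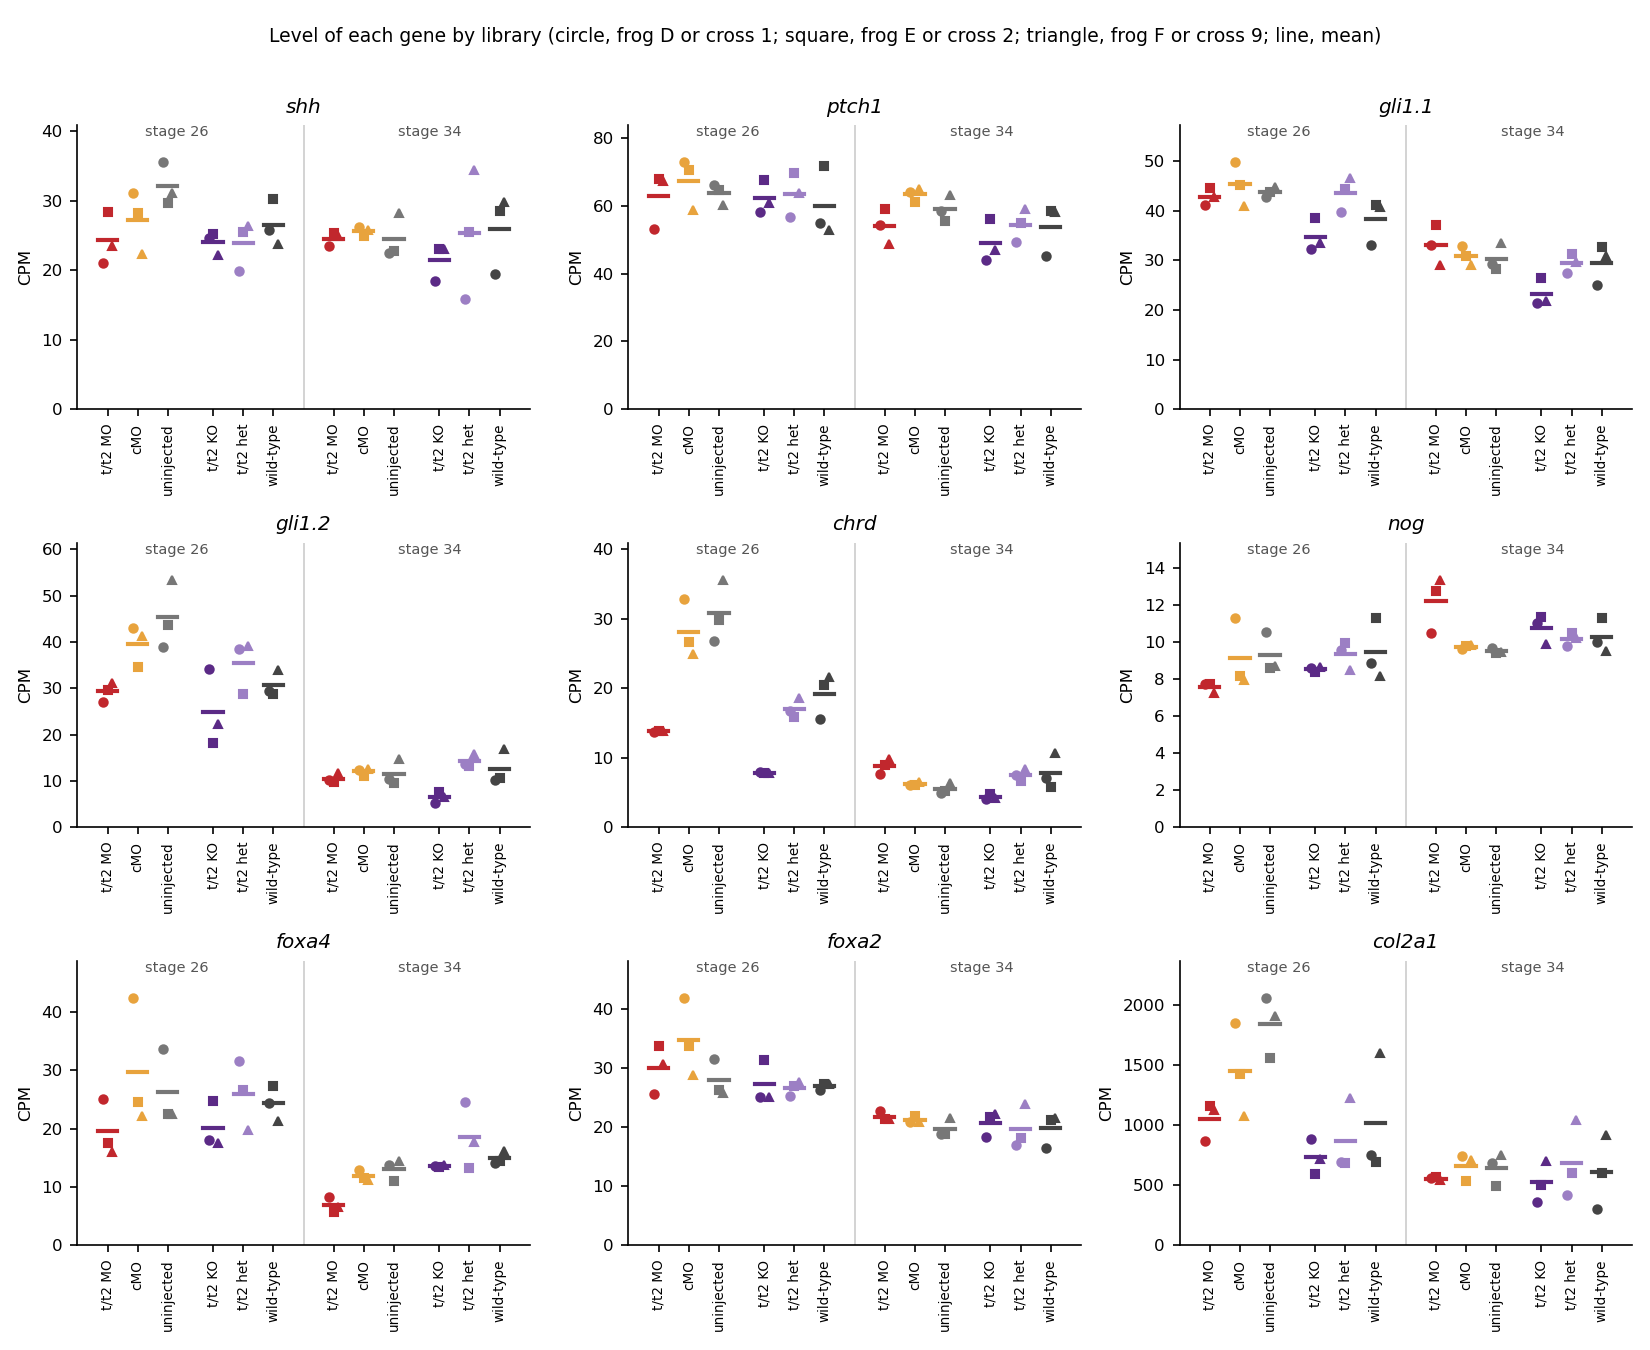
Level in CPM (vertical axis, linear from 0) of the 7 members and of gli1.1 and gli1.2 in each of the 36 libraries, grouped by condition within stage 26 (left of the grey line) and stage 34 (right), with the mean of 3 libraries as a line. At stage 26 all t/t2 MO and t/t2 KO libraries lie below their controls for chrd, whereas ptch1 and foxa2 overlap between conditions.

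**Figure D2:**
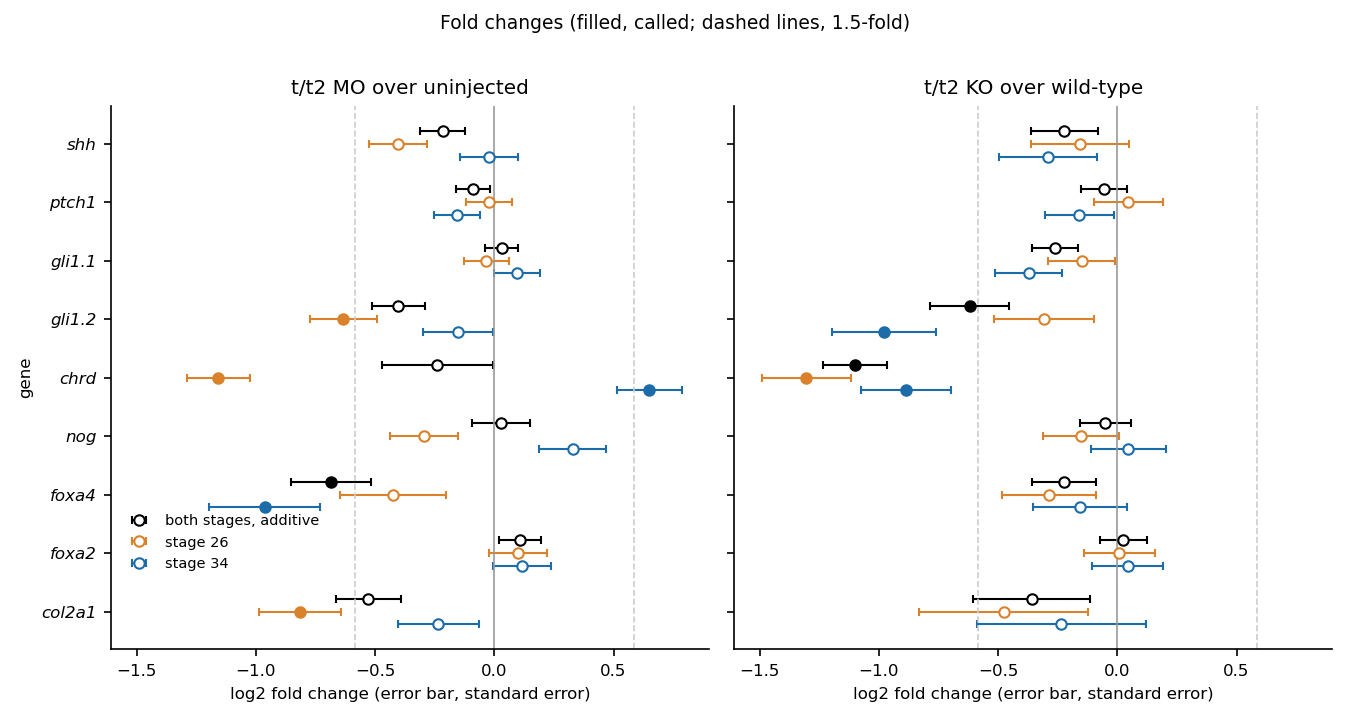
Log2 fold change with its standard error (horizontal axis) of each gene in t/t2 MO over uninjected embryos (left) and t/t2 KO over wild-type embryos (right), for both stages in an additive model, for stage 26 and for stage 34. Filled points were called, and the dashed lines mark 1.5-fold. The points for chrd lie on opposite sides of 0 at the 2 stages in t/t2 MO embryos and on the same side in t/t2 KO embryos.

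Per kilobase of annotated exon, col2a1 was the most abundant member by far. In uninjected embryos at stage 26 it had 286 ± 40.1 CPM per kilobase (SD, n = 3 libraries), and shh followed with 24.4 ± 2.34. Next came foxa4 with 14.1 ± 3.46 and ptch1 with 11 ± 0.518 CPM per kilobase, and the ranges of these 4 genes did not meet. The level of foxa2 was 8.92 ± 0.999, that of chrd 7.32 ± 1.05 and that of nog 5.58 ± 0.644 CPM per kilobase, and of these foxa2 and chrd overlapped in range. The model gli1.2 had 21.7 ± 3.5 CPM per kilobase, overlapping shh, and gli1.1 had 9.88 ± 0.228, overlapping foxa2. At stage 34 chrd was the lowest member in uninjected embryos, with 1.31 ± 0.171 CPM per kilobase.

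The ligand gene shh lies on scaffold 6 from 129426476 to 129445354 on the plus strand of assembly v7.1, with 3 exons. At stage 26 it was at 21.0, 28.5 and 23.6 CPM in t/t2 MO embryos of frogs D, E and F, against 35.6, 29.6 and 31.2 CPM in uninjected embryos. All 3 t/t2 MO libraries were below the uninjected ones, with a log2 change of -0.40 ± 0.12 (SE) and an adjusted p of 0.0324, which is less than 1.5-fold and was not called. In cMO embryos at this stage shh was at 31.1, 28.3 and 22.4 CPM, which overlapped the t/t2 MO range. Against cMO embryos the log2 change was -0.17 ± 0.12 (adjusted p = 0.467 by edgeR's quasi-likelihood test). At stage 34 the levels were 23.5, 25.3 and 24.9 CPM in t/t2 MO against 22.5, 22.8 and 28.3 CPM in uninjected embryos, and the groups overlapped. Over both stages the log2 change was -0.22 ± 0.10 (adjusted p = 0.103).

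In the KO experiment shh was at 24.7, 25.2 and 22.1 CPM in t/t2 KO embryos of crosses 1, 2 and 9 at stage 26, against 25.8, 30.3 and 23.7 CPM in wild-type siblings. At stage 34 it was at 18.5, 23.1 and 23.0 CPM in t/t2 KO against 19.5, 28.5 and 29.9 CPM in wild-type embryos. Each t/t2 KO library was below the wild-type library of its own cross and stage, in 6 of 6 pairs, although the groups overlapped. The log2 change was -0.22 ± 0.14 (adjusted p = 0.586), with a range of -0.51 to 0.06 at 2 standard errors.

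The receptor gene ptch1, itself a target of the pathway, lies on scaffold 1 from 89817657 to 89881538 on the plus strand and has 24 exons. It was at 53.3, 67.9 and 67.2 CPM in t/t2 MO against 66.1, 64.6 and 60.3 CPM in uninjected embryos at stage 26, and at 54.3, 59.0 and 48.7 against 58.3, 55.5 and 63.1 CPM at stage 34. The t/t2 KO embryos had 58.3, 67.5 and 60.9 CPM against 55, 71.8 and 52.9 CPM in wild-type embryos at stage 26, and at 43.9, 56.1 and 46.8 against 45.1, 58.3 and 58.2 CPM at stage 34. These groups overlapped at both stages in both experiments. The log2 change was -0.09 ± 0.07 (adjusted p = 0.397) in t/t2 MO and -0.06 ± 0.10 (adjusted p = 0.892) in t/t2 KO embryos, and at 2 standard errors neither estimate reached a change of 1.5-fold (-0.23 to 0.05 and -0.25 to 0.14). In cMO embryos at stage 34 ptch1 was at 64.1, 61.2 and 65.1 CPM, above all t/t2 MO libraries. Against cMO embryos the log2 change at that stage was -0.27 ± 0.10 (adjusted p = 0.0475 by edgeR's quasi-likelihood test). Over both stages it was -0.19 ± 0.07 (adjusted p = 0.0562). Both were under 1.5-fold and not called.

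The models gli1.1 and gli1.2 are named for the Gli1 factor, the transcriptional activator that hedgehog signalling induces. They lie on scaffold 2 from 84470197 to 84479717 on the plus strand and from 85126303 to 85130443 on the minus strand, 646585 bases apart with 15 genes between them, and have 11 and 2 exons in their longest transcripts. Whether they are copies or parts of a gene is not settled by these data. Only fragments aligned to a single gene were counted, so any that align to both models are missing from both counts. At stage 26 gli1.2 was at 27.1, 29.7 and 31.1 CPM in t/t2 MO against 39.0, 43.7 and 53.4 CPM in uninjected embryos. All t/t2 MO libraries were lower, with a log2 change of -0.63 ± 0.14 (adjusted p = 0.00358), which was called. Without frog F it was -0.52, and against cMO embryos at this stage it was -0.44 ± 0.14 (adjusted p = 0.0453), both under 1.5-fold and not called.

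At stage 34 gli1.2 was at 10.1, 9.76 and 11.7 CPM in t/t2 MO against 10.3, 9.52 and 14.7 CPM in uninjected embryos, with overlapping groups. In the KO experiment it was at 34.2, 18.3 and 22.3 CPM in t/t2 KO against 29.4, 28.8 and 33.9 CPM in wild-type embryos at stage 26, where the groups overlapped through cross 1. At stage 34 it was at 5.21, 7.66 and 6.46 CPM in t/t2 KO against 10.2, 10.7 and 16.8 CPM in wild-type embryos, and all t/t2 KO libraries were lower. The change over both stages was -0.62 ± 0.16 on the log2 scale (adjusted p = 0.0311) and was called, but without cross 9 it was -0.41 (adjusted p = 0.328). At stage 34 it was -0.98 ± 0.22 (adjusted p = 0.0114), and -0.72 (adjusted p = 0.19) without cross 9. Against t/t2 het siblings the change over both stages was -0.81 ± 0.16 (adjusted p = 0.00314).

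In the KD experiment gli1.1 was at 41.1, 44.6 and 42.8 CPM in t/t2 MO against 42.8, 43.8 and 44.8 CPM in uninjected embryos at stage 26, and at 33, 37.1 and 29 against 29.3, 28.2 and 33.6 CPM at stage 34. The groups overlapped, and the log2 change over both stages was 0.03 ± 0.07 (adjusted p = 0.789). In t/t2 KO embryos it was at 32.3, 38.5 and 33.5 CPM against 33.1, 41.2 and 40.8 CPM in wild-type embryos at stage 26, and at 21.4, 26.4 and 21.7 against 25.0, 32.8 and 30.8 CPM at stage 34. It was below the wild-type library of the same cross and stage in 6 of 6 pairs, with a log2 change of -0.26 ± 0.10 (adjusted p = 0.204), which was not called.

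Of a list of 20 other hedgehog genes, the 2 gli1 models included, 2 were called higher and 0 lower in t/t2 MO embryos. There 15.2% of all genes were called, and the list's median log2 change was 0.05 against -0.03 over all genes. Among t/t2 KO embryos 1 of the list was called higher (scube2) and 1 lower (gli1.2), where 3.44% of all genes were called. The list's median was 0.03 against 0.00 over all genes, and 1 list gene in all was called without cross 1. The scube genes encode secreted proteins that help release hedgehog ligands from the cells that make them. In t/t2 MO embryos scube1 changed by 0.78 ± 0.14 on the log2 scale (adjusted p = 0.000205), and in t/t2 KO embryos scube2 changed by 0.60 ± 0.14 (adjusted p = 0.0128). The second gene called in t/t2 MO embryos was ihh (1.22 ± 0.26, adjusted p = 0.00135), encoding another hedgehog ligand, which was too low to be named by rule and was picked after its value was seen. The pathway inhibitor hhip changed by -0.45 in t/t2 MO and -0.36 in t/t2 KO embryos and was called in neither.

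The gene chrd encodes Chordin, a secreted antagonist of BMP ligands made by the organizer and the early notochord. It lies on scaffold 5 from 10679067 to 10694327 on the minus strand with 23 exons. A neighbouring gene model on the other strand overlaps chrd over 1154 of its 4201 exon bases, and the library kit does not mark strand. Only fragments aligned to a single gene were counted, so any that align to both models are missing from both counts. At stage 26 chrd was at 13.7, 13.8 and 13.9 CPM in t/t2 MO embryos, against 26.8, 29.8 and 35.5 CPM in uninjected embryos and 32.8, 26.6 and 25.0 CPM in cMO embryos. The t/t2 MO libraries were close to each other and all far below both controls. The level was 2.23-fold lower than in uninjected embryos (log2 change -1.16 ± 0.13, adjusted p = 2.86e-06).

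At stage 34 the order turned round, with 7.65, 8.98 and 9.84 CPM in t/t2 MO against 4.96, 5.27 and 6.33 CPM in uninjected embryos and 6.11, 6.13 and 6.47 CPM in cMO embryos. All t/t2 MO libraries were now above the controls, by 1.57-fold over uninjected embryos (log2 change 0.65 ± 0.14, adjusted p = 0.00132). Against cMO embryos the excess was 1.38-fold (0.46 ± 0.14, adjusted p = 0.0184), which missed the fold threshold. The difference between the stages was itself called, at 1.81 ± 0.19 on the log2 scale (adjusted p = 4.67e-05), and at 1.49 ± 0.19 (adjusted p = 0.000548) with cMO embryos as controls. Averaged over both stages the change was -0.24 ± 0.23 (adjusted p = 0.484), so the additive model, which assumes the same change at both stages, made no call for chrd.

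At both stages chrd was lower in t/t2 KO embryos. It was at 7.89, 7.75 and 7.75 CPM in t/t2 KO against 15.6, 20.4 and 21.5 CPM in wild-type embryos at stage 26, and at 3.99, 4.72 and 4.2 against 7.05, 5.79 and 10.7 CPM at stage 34. All t/t2 KO libraries were below all wild-type ones at each stage, and t/t2 het libraries, at 15.8 to 18.6 and 6.61 to 8.42 CPM, stood near the wild-type level. The level was 2.14-fold lower over both stages (log2 change -1.10 ± 0.13, adjusted p = 2.18e-06, lower in 6 of 6 pairs), 2.47-fold lower at stage 26 and 1.85-fold lower at stage 34 (adjusted p = 0.00814). At stage 34 the call was lost without cross 1 (log2 change -0.90, adjusted p = 0.104) and without cross 9 (-0.59, adjusted p = 0.295). The difference between the stages was not called in t/t2 KO embryos (0.42 ± 0.26, adjusted p = 1).

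Over both stages the log2 change of chrd was -0.24 in t/t2 MO embryos, not called, and -1.10 in t/t2 KO embryos, called. The t/t2 MO value averages a fall at stage 26 (-1.16) and a rise at stage 34 (0.65). The t/t2 MO change minus the t/t2 KO change was 0.88 ± 0.28 on the log2 scale (adjusted p = 0.0469), in a joint model of all 36 libraries in which 8.97% of all genes were called, and chrd was the only member among them. This call was lost without frog E (0.85, adjusted p = 0.117) and without cross 9 (0.68, adjusted p = 0.251). With stages taken apart, in a contrast chosen once the data were known, that difference was 0.14 ± 0.23 (adjusted p = 0.961) at stage 26. At stage 34, where the changes had opposite signs (0.65 in t/t2 MO and -0.89 in t/t2 KO embryos), it was 1.55 ± 0.24 (adjusted p = 7.28e-05). The controls differed too, with chrd at 26.8 to 35.5 CPM in uninjected against 15.6 to 21.5 CPM in wild-type embryos at stage 26. At stage 34 the controls had 4.96 to 6.33 and 5.79 to 10.7 CPM. The t/t2 MO range at that stage, 7.65 to 9.84 CPM, lay within the wild-type one. The part of this control difference in the contrast was not tested.

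**Figure D3:**
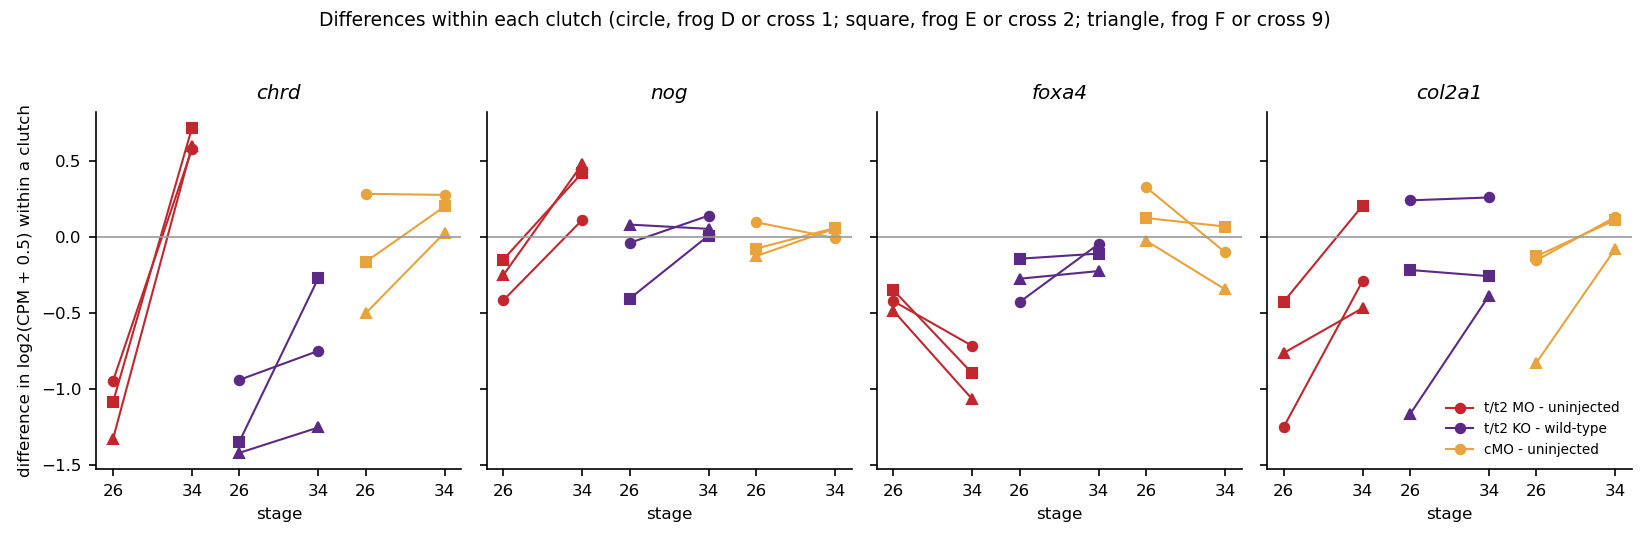
Difference in log2(CPM + 0.5) within each clutch (vertical axis) at stages 26 and 34 for chrd, nog, foxa4 and col2a1, with t/t2 MO minus uninjected, t/t2 KO minus wild-type and cMO minus uninjected embryos side by side and 1 line per frog or cross. For chrd the 3 lines of t/t2 MO embryos start below 0 and end above it, and those of t/t2 KO embryos stay below 0.

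In the control embryos themselves chrd fell between the stages. It was at 4.96 to 6.33 CPM at stage 34 against 26.8 to 35.5 CPM at stage 26 in uninjected embryos, 5.53-fold lower (log2 change -2.47 ± 0.14, adjusted p = 1.77e-10). In wild-type embryos it was at 5.79 to 10.7 CPM at stage 34 against 15.6 to 21.5 CPM at stage 26, 2.45-fold lower (log2 change -1.29 ± 0.19, adjusted p = 6.04e-05). The stage 34 level was 0.558 to 0.709 of the stage 26 level in t/t2 MO embryos of the same frog, against 0.177 to 0.185 in uninjected ones. In t/t2 KO embryos it was 0.506 to 0.609 of the stage 26 level, against 0.284 to 0.497 in wild-type siblings.

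Skeletal muscle genes were lower in the same embryos. All 5 muscle markers were called lower in t/t2 MO and in t/t2 KO embryos, against 8.58% and 2.97% of all genes. Their median log2 changes were -1.12 and -1.13. Examples are myod1, a muscle determination factor (-1.58 and -1.57), and myh4, a myosin heavy chain (-1.54 and -1.20). Their summed level was 4205 to 6053 CPM in t/t2 MO against 9180 to 11287 CPM in uninjected embryos at stage 26, and 3355 to 4217 against 9426 to 11343 CPM at stage 34, where chrd was higher. Their part in the chrd levels was not tested.

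The second BMP antagonist gene, nog, lies on scaffold 10 from 15222768 to 15224434 on the plus strand with 1 exon and encodes Noggin. At stage 26 it was at 7.76, 7.74 and 7.24 CPM in t/t2 MO against 10.5, 8.63 and 8.72 CPM in uninjected embryos. At stage 34 it was at 10.5, 12.8 and 13.4 CPM in t/t2 MO against 9.68, 9.41 and 9.45 CPM in uninjected embryos. As with chrd, the t/t2 MO libraries lay all below the uninjected ones at stage 26 and all above them at stage 34.

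Neither stage was called for nog on its own, at -0.29 ± 0.14 (adjusted p = 0.207) and 0.33 ± 0.14 (adjusted p = 0.0957, less than 1.5-fold) on the log2 scale. The difference between the stages was called at 0.62 ± 0.20 (adjusted p = 0.0857). It makes nog and chrd the 2 of 7 members with a call there, where 5.59% of all genes were called. The nog call was lost without frog E (0.66, adjusted p = 0.4), without frog F (0.56, adjusted p = 0.418) and with cMO embryos as controls (0.56, adjusted p = 0.16), in which nog ranged from 7.94 to 11.3 CPM at stage 26. With the clutch as a block its adjusted p was 0.0438.

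Noggin transcripts in t/t2 KO embryos were at 8.61, 8.42 and 8.69 CPM against 8.87, 11.3 and 8.19 CPM in wild-type embryos at stage 26, and at 11.1, 11.4 and 9.89 against 10.0, 11.3 and 9.52 CPM at stage 34. The groups overlapped, and the log2 change was -0.05 ± 0.11 (adjusted p = 0.917). Of 16 measured genes of a BMP signalling list, 1 gene was called in each experiment, szl (higher). Over all genes 15.2% were called in t/t2 MO and 3.44% in t/t2 KO embryos. The gene szl encodes Sizzled, a secreted protein that in Xenopus inhibits the proteases that cleave Chordin. Its level changed by 1.85 ± 0.30 on the log2 scale in t/t2 MO (adjusted p = 7.7e-05) and by 1.21 ± 0.33 in t/t2 KO embryos (adjusted p = 0.0425). Without cross 1 the list had 0 calls in t/t2 KO embryos, and without frog F it had 2 in t/t2 MO embryos. The list's median was 0.35 in t/t2 MO embryos, against -0.03 over all genes, and 0.01 in t/t2 KO embryos, against 0.00. An unadjusted p under 0.05 by edgeR's quasi-likelihood test was found for 10 and 4 of the 16 genes. The list's summed level at stage 26 was 1347 to 1648 CPM in t/t2 MO, 1166 to 1301 CPM in uninjected and 1193 to 1387 CPM in cMO embryos. At stage 34 it was 994 to 1149 CPM, against 739 to 792 and 812 to 827 CPM.

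The gene foxa4 encodes a forkhead factor of the organizer, notochord and floor plate of Xenopus and lies on scaffold 4 from 61601486 to 61605039 on the plus strand with 2 exons. At stage 26 it was at 25.1, 17.6 and 15.9 CPM in t/t2 MO against 33.8, 22.5 and 22.5 CPM in uninjected embryos, with overlapping groups but a lower value in each frog. At stage 34 it was at 8.22, 5.67 and 6.61 CPM in t/t2 MO, against 13.8, 11 and 14.4 CPM in uninjected and 12.8, 11.5 and 11.2 CPM in cMO embryos, with all t/t2 MO libraries lower. Over both stages foxa4 was 1.61-fold lower (log2 change -0.69 ± 0.17, adjusted p = 0.00355, lower in 6 of 6 pairs), and against cMO embryos the log2 change was -0.71 ± 0.17 (adjusted p = 0.00299). In the comparison with cMO embryos 13.6% of all genes were called, and foxa4 was the 1 member among them. Both comparisons share the t/t2 MO libraries.

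At stage 34 alone foxa4 was 1.95-fold lower (log2 change -0.96 ± 0.23, adjusted p = 0.00387) and at stage 26 it was not called (-0.42 ± 0.22, adjusted p = 0.257), although against cMO embryos at that stage it was (-0.60 ± 0.22, adjusted p = 0.0883). The difference between the stages did not pass the test (-0.54 ± 0.32, adjusted p = 0.414). In t/t2 KO embryos foxa4 was at 18.0, 24.7 and 17.6 CPM against 24.4, 27.4 and 21.4 CPM in wild-type embryos at stage 26, and at 13.6, 13.3 and 13.8 against 14.1, 14.4 and 16.2 CPM at stage 34. It was lower within each cross and stage, in 6 of 6 pairs, but by less, with a log2 change of -0.22 ± 0.13 (adjusted p = 0.557). The t/t2 MO effect differed from the t/t2 KO effect by -0.47 ± 0.22 (adjusted p = 0.206), so a difference between the experiments was not called.

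The related factor gene foxa2, active in the floor plate, notochord and endoderm, lies on scaffold 5 from 91327998 to 91331966 on the minus strand with 2 exons. It was at 25.6, 33.7 and 30.7 CPM in t/t2 MO against 31.6, 26.4 and 25.9 CPM in uninjected embryos at stage 26, and at 22.7, 21.3 and 21.4 against 18.8, 18.8 and 21.6 CPM at stage 34. The t/t2 KO embryos had 25.2, 31.4 and 25.2 CPM against 26.3, 27.3 and 27.4 CPM in wild-type embryos at stage 26, and at 18.3, 21.7 and 22.2 against 16.5, 21.3 and 21.6 CPM at stage 34. The groups overlapped throughout. The log2 change was 0.11 ± 0.09 (adjusted p = 0.418) in t/t2 MO and 0.03 ± 0.10 (adjusted p = 0.969) in t/t2 KO embryos, with ranges of -0.07 to 0.28 and -0.17 to 0.23 at 2 standard errors.

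Of 15 other floor plate and ventral neural tube genes, 2 were called higher and 1 lower in t/t2 MO embryos (15.2% over all genes). There 8 had an unadjusted p under 0.05 by edgeR's quasi-likelihood test. In t/t2 KO embryos 0 were called by edgeR and 0 by DESeq2, 5 had an unadjusted p under 0.05, and the alternatives made 0 to 3 calls (2 without cross 9). Without frog E the t/t2 MO embryos had 5 calls. The called genes were sim1, a transcription factor of ventral interneurons and hypothalamus (0.88 ± 0.12), foxj1, the regulator of motile cilia (0.71 ± 0.12), and nkx2-4, a homeobox factor of the ventral forebrain (-0.85 ± 0.13). Another entry on the list, foxj1.2, averaged 11.85 CPM in t/t2 MO against 12.44 CPM in uninjected embryos at stage 26. At stage 34 foxj1.2 averaged 10.79 against 10.18 CPM, and it was not called. Endoderm also expresses foxa2 and shh. Of 9 endoderm markers, 2 were called higher in t/t2 MO embryos, where 15.2% of all genes were called. These were gata4 (0.62 ± 0.11) and hhex (0.59 ± 0.12), and 1 marker was called without frog E. Against cMO embryos 0 of the markers were called, with 13.6% of all genes called. In t/t2 KO embryos 0 were called by edgeR and 0 by DESeq2, and 0 had an unadjusted p under 0.05. Their summed level at stage 26 was 656 to 681 CPM in t/t2 MO against 529 to 691 CPM in uninjected embryos, with overlapping groups. At stage 34 it was 475 to 541 CPM in t/t2 MO against 329 to 385 CPM in uninjected embryos. The part of these markers' tissue in the foxa2 and shh levels was not tested.

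The gene col2a1 encodes the alpha chain of type II collagen, the main fibril of the notochord sheath and of cartilage, and lies on scaffold 2 from 87241397 to 87289433 on the plus strand with 54 exons in its longest transcript. At stage 26 it was at 865, 1157 and 1125 CPM in t/t2 MO against 2057, 1554 and 1909 CPM in uninjected embryos. All t/t2 MO libraries were lower, 1.76-fold on average (log2 change -0.81 ± 0.17, adjusted p = 0.00261). In cMO embryos the level was 1848, 1423 and 1076 CPM, the last of which overlapped the t/t2 MO range, and against them the log2 change was -0.47 ± 0.17 (adjusted p = 0.085), under 1.5-fold. At stage 34 col2a1 was at 557, 567 and 541 CPM in t/t2 MO against 681, 491 and 748 CPM in uninjected embryos, with overlapping groups.

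Over both stages col2a1 changed by -0.53 ± 0.14 on the log2 scale (adjusted p = 0.00535), past the FDR but short of 1.5-fold, and without frog E it was called at -0.69 (adjusted p = 0.0035). In the KO experiment it varied more by cross than by genotype. At stage 26 it was at 887, 593 and 714 CPM in t/t2 KO against 751, 690 and 1600 CPM in wild-type embryos of crosses 1, 2 and 9, so that t/t2 KO embryos were higher in cross 1 and lower in crosses 2 and 9. At stage 34 it was at 359, 505 and 702 CPM in t/t2 KO against 300, 604 and 918 CPM in wild-type embryos. The log2 change was -0.36 ± 0.25 (adjusted p = 0.618), lower in 4 of 6 pairs, and its range at 2 standard errors, -0.85 to 0.13, holds the t/t2 MO value.

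Among 21 measured genes of a wider notochord list, 9 were called lower in t/t2 MO embryos and 7 in t/t2 KO embryos, with 0 higher in either. Over all genes 8.58% and 2.97% were called lower. The list's median log2 changes were -0.46 and -0.33. The largest falls among list genes with a mean count of at least 50 were far larger than that of any member. The gene emilin3, whose product is an extracellular matrix protein of the notochord, had a log2 change of -4.28 ± 0.40 in t/t2 MO embryos and of -3.57 ± 0.41 in t/t2 KO embryos. The caveolin genes, whose products form the membrane pits abundant in notochord cells, fell too. The log2 change in t/t2 MO embryos was -2.67 for cav1, -2.75 for cav2 and -3.33 for cav3.2. The changes in t/t2 KO embryos were -2.21, -1.76 and -3.19 for the same genes in that order. Skeletal muscle markers fell in the same embryos, and the part of muscle in the caveolin levels was not tested. At stage 26 cav1 averaged 21.3 CPM in t/t2 MO against 190 CPM in uninjected embryos, and 31.3 CPM in t/t2 KO against 155 CPM in wild-type embryos. The homeobox gene not, an early notochord marker, changed by 0.00 in t/t2 MO and -0.44 in t/t2 KO embryos and was called in neither. The 0.00 averages opposite differences at the 2 stages. In t/t2 MO embryos not averaged 11.73 CPM at stage 26 and 5.896 CPM at stage 34, against 13.55 and 4.955 CPM in uninjected embryos. Of 3 measured cartilage and otic markers, which share col2a1 with the notochord, 1 was called in each experiment (col9a1, lower, also on the notochord list), and sox9, a regulator of col2a1 in cartilage, had log2 changes of -0.39 and 0.11 and was not called.

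**Figure D4:**
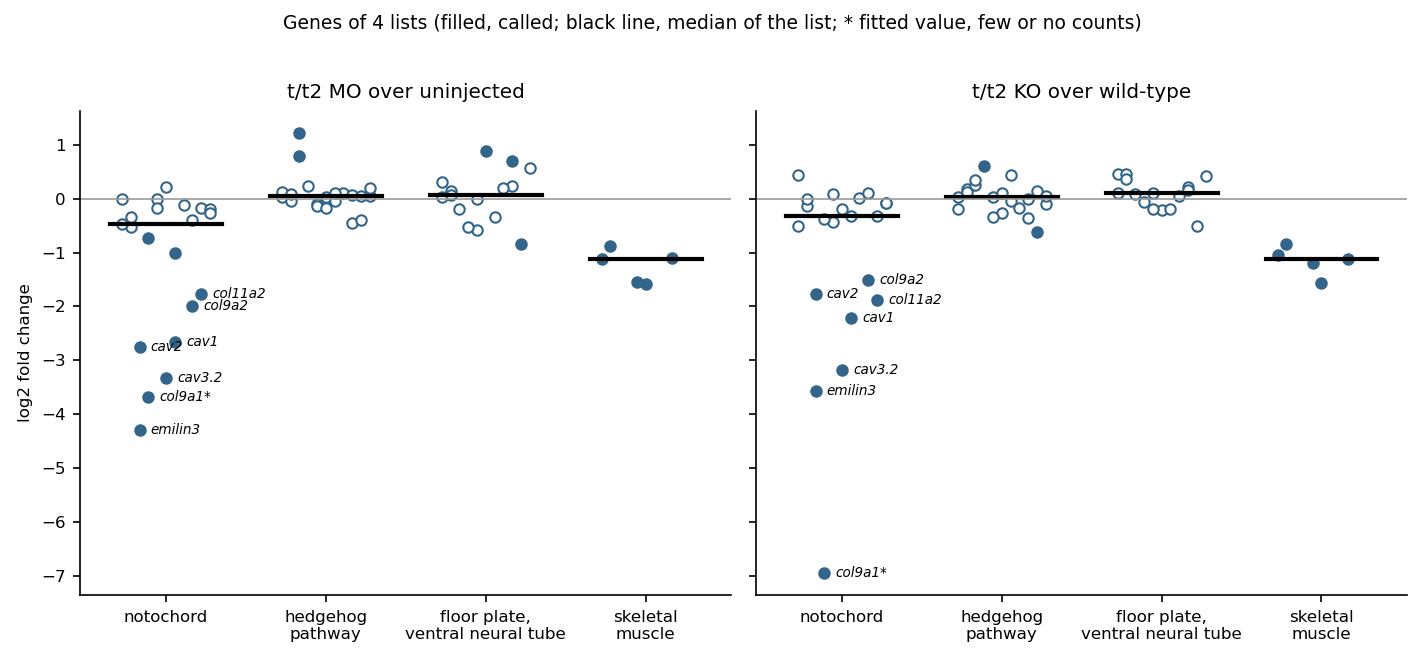
Log2 fold change (vertical axis) of the measured genes of 4 lists in t/t2 MO over uninjected embryos (left) and t/t2 KO over wild-type embryos (right), with 1 point per gene, filled where called, and the median of each list as a line. The lowest points in both panels are named notochord genes, while the hedgehog and floor plate lists centre near 0 in both panels. The asterisk marks col9a1, whose counts were few or 0 and whose fitted value is no measure of size.

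Between the stages, 3 of 7 members were called lower at stage 34 than at stage 26 in uninjected embryos (chrd, foxa4 and col2a1), where 31.9% of all genes were called. In wild-type embryos 2 members were called lower (chrd and foxa4), where 17.4% were called. The fall of foxa4 was by 0.99 ± 0.22 on the log2 scale in uninjected and by 0.72 ± 0.20 in wild-type embryos (adjusted p = 0.00138 and 0.016), and the second was not called without cross 2 (-0.60, adjusted p = 0.106). The fall of col2a1 was by 1.51 ± 0.17 in uninjected embryos (adjusted p = 9.46e-07). In wild-type embryos it changed by -0.74 ± 0.36 (adjusted p = 0.177), and with the clutch as a block by -0.75 (adjusted p = 0.00809), which made 3 calls in place of 2. It was also called without cross 2 (-0.96, adjusted p = 0.0654) and without cross 9 (-0.66, adjusted p = 0.0494). The model gli1.2 fell as well, by 1.97 ± 0.14 and 1.29 ± 0.21 in uninjected and wild-type embryos. Uncalled changes in uninjected embryos that were under 1.5-fold but within the FDR were those of shh (-0.38 ± 0.12, adjusted p = 0.0183), foxa2 (-0.49 ± 0.12, adjusted p = 0.00312) and gli1.1 (-0.51 ± 0.10, adjusted p = 0.000236). In wild-type embryos the same genes had log2 changes of -0.04 (adjusted p = 0.974), -0.45 (adjusted p = 0.0475) and -0.38 (adjusted p = 0.0744). For nog and ptch1 the log2 changes were 0.05 and -0.10 in uninjected and 0.11 and -0.16 in wild-type embryos, none within the FDR.

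The control conditions gave no call among the members. Between cMO and uninjected embryos, a comparison that shares the uninjected libraries with that of t/t2 MO embryos, 0 of 7 members were called by edgeR and 0 by DESeq2, with 1.42% of all genes called, and 1 member (foxa2) had an unadjusted p under 0.05. By stage the counts were 0 at stage 26 and 0 at stage 34, with 0.701% and 1.02% of all genes called, and at an unadjusted p under 0.05 they were 1 and 0. For the dependence of the cMO effect on stage the count was 0, with 0% of all genes called and 0 members at an unadjusted p under 0.05. Over both stages the members' log2 changes in cMO embryos ran from -0.15 (col2a1) to 0.22 ± 0.09 (foxa2, adjusted p = 0.273), with 0.05 for gli1.1 and -0.07 for gli1.2.

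Between t/t2 het and wild-type embryos 0 members were called by edgeR and 0 by DESeq2, with 0.0222% of all genes called and 0 members at an unadjusted p under 0.05. Their log2 changes ran from -0.12 (chrd) to 0.20 (foxa4), with 0.09 for gli1.1 and 0.19 for gli1.2. Against t/t2 het siblings, t/t2 KO embryos had 1 member called, chrd, lower by 0.98 ± 0.13 on the log2 scale (adjusted p = 1.85e-05), with 2.67% of all genes called. This comparison shares the t/t2 KO libraries with that against wild-type embryos. In it foxa4 changed by -0.42 ± 0.13 (adjusted p = 0.14), and by -0.60 (adjusted p = 0.0242) without cross 2, which was called, and by -0.16 (adjusted p = 0.978) without cross 1. For the dependence of the t/t2 KO effect on stage 0 members were called by edgeR, with 0.0278% of all genes called and 0 members at an unadjusted p under 0.05.

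The genes whose levels followed each member most closely were sought among 12010 genes with a symbol and a mean count of at least 50, by Pearson's r of log2 levels centred within clutch and stage over 36 libraries. The libraries of a clutch share their parents, and every clutch has libraries with the targeted loss beside controls without it. The values therefore include differences between conditions and are descriptions. For ptch1 the closest gene was hhip (r = 0.719), the hedgehog-interacting protein gene that the pathway also induces. For gli1.1 the closest was smtnl2 (0.823). For col2a1 they were col9a3 (0.888), loxl1 (0.813) and loxl2 (0.809), encoding a type IX collagen chain and enzymes that cross-link collagen. For chrd they were rasd1 (0.890), pdlim3 (0.887) and phkg1 (0.883), the last 2 known from muscle. The model gli1.2 was followed by palm2 (0.901), muc4 (0.879) and xirp1 (0.873), the last a protein of striated muscle. The closest were igf2bp3 for shh (0.819), slc38a4 for nog (0.817), plekhg4 for foxa4 (0.903) and elk4 for foxa2 (0.664). The genes that the rule gives for foxa4 (r from 0.897 to 0.903) all have gene identifiers with the letter D, as foxa4 on scaffold 4 does. Whether a shared scaffold has a part in these values was not tested.

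Among the members themselves, shh and col2a1 were most alike (r = 0.717), followed by shh and ptch1 (0.499) among pairs with shh. The pair chrd and nog had r = 0.563, while nog and foxa4 had -0.199 and foxa2 stood apart from chrd (0.0493) and foxa4 (0.0474).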

How the data were processed

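Reads of 76 bases in pairs, from poly(A) libraries of a kit that does not mark strand, were aligned by the authors with Bowtie2 2.1.0 to revised X. tropicalis gene models, and only pairs aligning to a single gene were counted. The deposited values are raw counts, not normalized. The 3 entries that name no gene (unmapped reads, 27.27% to 34.01% of the sum, ribosomal and mitochondrial RNA) were left out. Gene positions were read from the annotation that the authors deposited, on assembly v7.1. The deposited table of gene ontology terms was not used.

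All 36 columns were matched to samples by title. Libraries were scaled by TMM in edgeR 4.0.16 under R 4.3.3. Each experiment of 18 libraries was fitted as stage plus condition, as group means for tests by stage, and jointly for the difference between experiments, and p-values were adjusted by Benjamini-Hochberg across the genes that had any count (25209 in KD, 24952 in KO). The procedure was tested on simulated data. No libraries were identical (lowest chi-square per gene between libraries of a group, 12.4). The precision of low counts is limited by depth, and the lowest member count was 153 fragments. Standard errors are the log2 change over the square root of F.

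Libraries are paired by clutch, as the labels give the frog or cross. Deviations from group means correlated with a mean r of 0.32 (KD) and 0.319 (KO) within clutches. The means between clutches, -0.159 and -0.16, are not an independent comparison, since deviations from a group mean cancel within the group. The clutch was fitted as a replicate block in an alternative. The other alternatives were DESeq2 1.42.0 (likelihood ratio test or size factors), other filters and thresholds, the compared conditions alone, and each clutch left out in turn. Contrasts with cMO or t/t2 het as controls by stage, and of the experiments by stage, were chosen once the data were known.

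By rule all 8 genes were taken in every comparison, and where none was called they are given mainly by counts and ranges. List genes are named if called, up to 4 per list and comparison by size of change, at a mean count of at least 50. hhip, ihh and not were added after their values were seen. The members and lists were chosen with earlier results of these data known. Sequences were not used here. One of the genes that the likeness rule names is not reported here. Plots used Python 3.11.15 with matplotlib 3.10.9.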

Additional observations from a re-analysis of the deposited data

Results flagged for a closer look

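The change of chrd in t/t2 MO embryos differed between stages 34 and 26 by 1.81 on the log2 scale against uninjected embryos, and by 1.49 against cMO embryos. The change of nog differed between the stages by 0.62, a call lost without frog E, without frog F and with cMO embryos as controls. The log2 change of chrd in t/t2 MO minus that in t/t2 KO embryos was 0.88 over both stages (-0.24 and -1.10). Its t/t2 MO part averages a fall at stage 26 and a rise at stage 34. At stage 34 alone, in a contrast chosen once the data were known, the chrd difference was 1.55 (0.65 and -0.89), with opposite signs. For gli1.2 at stage 34 the log2 change was -0.15 in t/t2 MO embryos, not called, and -0.98 in t/t2 KO embryos, called, a difference of 0.84 (standard error 0.28, adjusted p = 0.0635 by edgeR's quasi-likelihood test), in a contrast added after the data had been seen. Over both stages this gli1.2 difference was 0.22 and was not called. The stage 34 call of gli1.2 in t/t2 KO embryos was lost without cross 9 (-0.72). Groups of 3 libraries are too small to single out a library by its distance from the others.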

How the results depend on the processing

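The 148 alternative counts of called members were within 1.5 times the reported one in 132 cases. The share of all genes called was not counted under these alternatives, so their counts have no background beside them. With no fold threshold the members called were 2 in place of 1 for t/t2 MO against uninjected embryos (col2a1 added) and 3 in place of 1 for t/t2 MO against cMO embryos. At an FDR of 0.01 they were 1 in place of 2 for the stage dependence in t/t2 MO embryos and for stage 34 against stage 26 in wild-type embryos, and 0 in place of 1 for the difference between the t/t2 MO and t/t2 KO effects, which was also 0 with stage 26 alone. With cMO in place of uninjected embryos 1 in place of 2 was called at stage 34, and 1 in place of 2 for the stage dependence. Leaving out each clutch gave 1 to 2 members for t/t2 MO against uninjected embryos, 1 to 2 for the stage dependence in t/t2 MO embryos, 0 to 1 for the difference between the effects, 1 to 2 for t/t2 KO against t/t2 het and 0 to 1 for t/t2 KO against wild-type embryos at stage 34. With 2 clutches left, fewer libraries enter each fit, and other causes were not tested. With the clutch as a replicate block, 3 members in place of 2 were called for stage 34 against stage 26 in wild-type embryos (col2a1 added), and no other call among the 7 members changed. Of 1332 alternative fold changes of the 9 genes, 1299 kept their side of the thresholds, 20 lost a call and 13 gained one. The direction turned in 0 called values. In lists, the calls over the alternatives were 7 to 17 (notochord), 2 to 7 (hedgehog) and 1 to 10 (BMP) in t/t2 MO embryos, and 7 to 8, 0 to 4 and 0 to 1 in t/t2 KO embryos. Promoter motif counts were planned and not run, as no sequence was used here. The lowest member count was 153 fragments (chrd).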
